A study of Xenopus laevis with 4 samples.

Results

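The ventx genes encode homeodomain transcription factors of the ventral side of the frog gastrula. All gene symbols of the expression table that start with ventx were taken, which gave 10 of its 21531 genes: the .L and .S homeologs of ventx1, ventx1.2, ventx2, ventx2.2 and ventx3.2. Homeologs are the copies of a gene on the 2 subgenomes of the allotetraploid Xenopus laevis. The study removed genes with low counts before depositing the table, and all 10 ventx genes that the table holds were tested here.

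RNA-seq was performed on ventral tissue of X. laevis gastrulas, in 2 libraries of a control group and 2 of a sox8 CRISPR group. The embryos of both groups received mRNA of Cas7-11, a CRISPR enzyme that cleaves RNA matched by its guide, and those of the sox8 CRISPR group also received guides against sox8. The libraries, labelled as embryos 1 and 2 of each group, were made by Smart-seq2, which copies polyadenylated RNA and amplifies it by PCR. The labels state Cas7-11 mRNA for the controls, so the comparison is of guides against no guides, and no control with unrelated guides was analysed here.

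BMP ligands of the ventral gastrula act through receptor kinases and Smad proteins, and ventx genes are among the genes that this signal switches on. Ventx proteins repress genes of the Spemann organizer, such as goosecoid (gsc) and chordin (chrd), and thereby help to keep the ventral mesoderm ventral. The family has been compared with mammalian NANOG for its part in keeping early cells uncommitted. The ventx1 and ventx1.2 genes have been called PV.1 and Xvent-1, the ventx2 genes Vox, Xom and Xvent-2, and ventx3.2 has been called Vex1.

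The sequences that define the treatment are the stretches of sox8 transcript matched by the guides. Each is 23 bases long and written 5′ to 3′. They lie in the 3′ UTR of sox8, and none was designed against a ventx gene.
G1: tgaaggactataatgccataata
G2: cctgctgataaactgaggatttt
G3: accagaccaacaattctgattct
No genome or transcript sequence was used here, so their coordinates are not given and ventx transcripts were not searched for them. Ventral tissue was also checked by PCR for ventx1, and the forward primer, 20 bases long, is the ventx sequence used here. The reverse primer is not shown, because the study lists the same bases under both ventx1 and sox8. Which ventx1 homeolog the forward primer matches was not tested.
Ventx1_Fw: cgctcccccaccatattagg

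The libraries held 18189895 to 24108577 reads on genes, recovered from the deposited values, and 1 read was worth 0.625 to 1.56 normalized counts. Genes listed at 0 numbered 667 to 1290 in 3 libraries and 3862 in sox8 CRISPR replicate 2. The targeted gene sox8.L had 26.9 and 25.4 normalized counts after sox8 CRISPR against 508 and 927 without guides. Its homeolog sox8.S had few counts and overlapped between the groups, with 134 and 0 after sox8 CRISPR against 14.1 and 43.7. Values are counts divided by 1 size factor per library, and the spread between libraries of a group is described on that scale unless another is named. The normalized count of 1 gene cannot be set against that of another because transcript lengths were not used. Nothing in the labels says that libraries of a group came from separate spawnings, so p-values rest on the spread between these libraries, which the fits pool in part across genes. Reads of PCR-amplified cDNA without molecular identifiers are not independent molecules, and the intervals given for shares of reads cover counting error only.

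All 10 ventx genes had lower normalized counts in both sox8 CRISPR libraries than in either control, and they fell into 2 sets by the size of the difference. The ventx1, ventx1.2 and ventx3.2 genes kept 0.566% to 5.39% of their control mean, whereas the ventx2 and ventx2.2 genes kept 24.6% to 30.9%. The 6 genes of the first set were called lower and the 4 genes of the second were not. A call required a Benjamini-Hochberg adjusted p under 0.05 together with a log2 fold change beyond 0.58 in size, using limma on log2(normalized count + 1) over all 21531 genes. Among all genes, limma called 41 lower (0.190%) and 31 higher (0.144%). Both sox8 CRISPR libraries lay below both controls for 19.1% of all genes and above both for 17.0%, so that order alone is common in these data. The median log2 fold change was -4.56 over the 10 ventx genes and -0.16 over all genes. In bulk tissue, fewer cells that express a gene and less of its RNA per cell cannot be told apart.

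**Figure D1:**
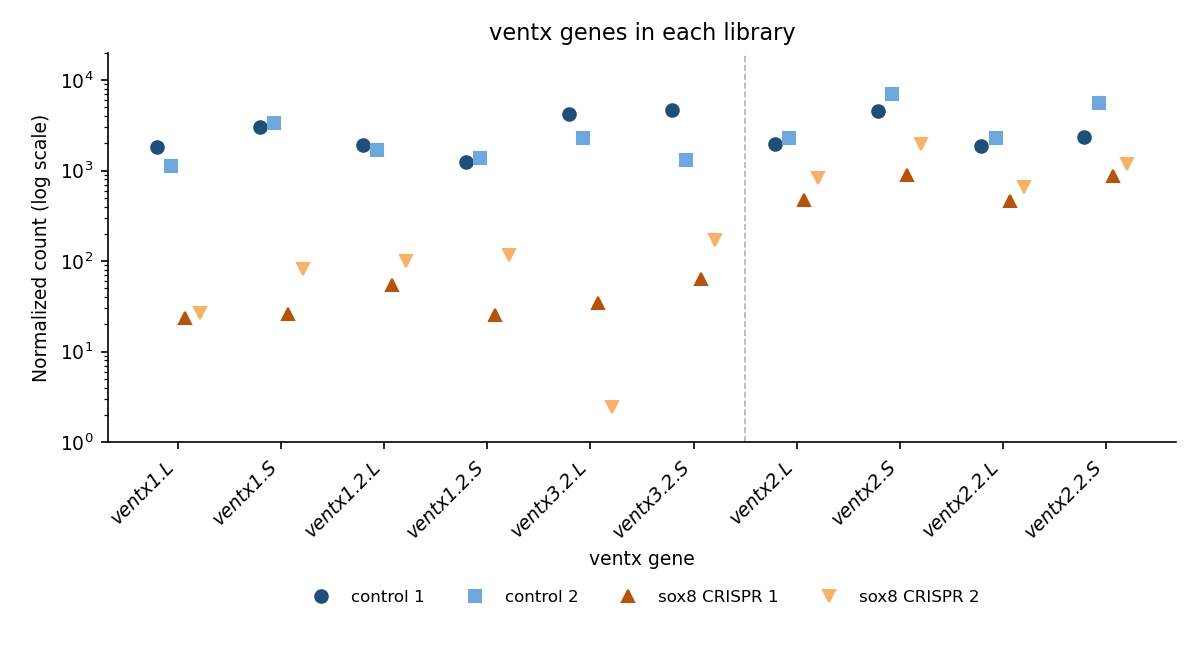
Normalized counts (log scale) of the 10 ventx genes in each library, with 1 point per library and no averaging. Left of the dashed line, the sox8 CRISPR points of ventx1, ventx1.2 and ventx3.2 lie between 2.42 and 169, and right of it those of ventx2 and ventx2.2 lie between 456 and 1974, all below the control points of the same gene.

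The ventx1 homeologs kept 1.72% (.L) and 1.70% (.S) of their control means. For ventx1.L (chromosome 7L, 21788605 to 21791493 of the v10.1 assembly), control libraries 1 and 2 gave 1812 and 1118 normalized counts, and sox8 CRISPR libraries 1 and 2 gave 23.7 and 26.6. Both sox8 CRISPR libraries were low and close to each other, while the controls differed by 1.62 times. The fitted log2 fold change was -5.77 ± 0.87 (SE), with a limma adjusted p of 0.00491, and the group means differed 58.2-fold. For ventx1.S (chromosome 7S, 16915170 to 16918074), the control libraries gave 3031 and 3341 normalized counts and the sox8 CRISPR libraries 26.2 and 82.2, so that the spread lay in the CRISPR libraries. Its group means differed 58.8-fold, with a fitted log2 fold change of -6.06 ± 0.80 (SE) and a limma adjusted p of 0.00104. The reads behind the sox8 CRISPR values were few, 38 and 22 for ventx1.L and 42 and 68 for ventx1.S, against 1160 to 4203 in the controls.

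The ventx1.2 genes, which lie in the same clusters, were lower by a smaller factor. For ventx1.2.L (chromosome 7L, 21748635 to 21753346), the control libraries gave 1941 and 1674 normalized counts and the sox8 CRISPR libraries 55.0 and 102. The fitted log2 fold change was -4.57 ± 0.77 (SE), with a limma adjusted p of 0.00956. For ventx1.2.S (chromosome 7S, 16878209 to 16881959), the control libraries gave 1259 and 1368 normalized counts and the sox8 CRISPR libraries 25.6 and 116. The controls agreed closely for this gene, whereas sox8 CRISPR replicate 2 stood 4.53 times above replicate 1. The log2 fold change of ventx1.2.S was -4.56 (standard error 0.88), and its adjusted p of 0.0254 was the highest of the 6 called genes in limma.

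The ventx3.2 genes, which encode the protein also called Vex1, showed the largest difference within a homeolog pair. For ventx3.2.L (chromosome 7L, 21731065 to 21734295), the control libraries gave 4195 and 2298 normalized counts and the sox8 CRISPR libraries 34.4 and 2.42. The lowest of these values rests on 2 reads, and the other sox8 CRISPR value rests on 55. The fitted log2 fold change was -8.14 ± 1.05 (SE), with a limma adjusted p of 0.00104. It was -6.46 when sox8 CRISPR replicate 2 was left out. For ventx3.2.S (chromosome 7S, 16864837 to 16868180), the control libraries gave 4644 and 1320 normalized counts and the sox8 CRISPR libraries 63.7 and 169. Here the controls themselves differed 3.52-fold, the widest control spread among the ventx genes, and no library overlapped the other group. The fitted log2 fold change of ventx3.2.S was -4.56 ± 0.82 (SE), with a limma adjusted p of 0.0162.

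The ventx2 genes kept more of their transcript. For ventx2.L (chromosome 7L, 21805591 to 21807431), the control libraries gave 1954 and 2290 normalized counts and the sox8 CRISPR libraries 471 and 839. The group means differed 3.24-fold, the smallest factor among the ventx genes, and the log2 fold change of -1.75 (standard error 0.71) did not pass the threshold (limma adjusted p = 0.654). For ventx2.S (chromosome 7S, 16926730 to 16928499), the control libraries gave 4607 and 7068 normalized counts and the sox8 CRISPR libraries 899 and 1974. The fitted log2 fold change was -2.10 ± 0.76 (SE), with a limma adjusted p of 0.539. Control and sox8 CRISPR libraries did not overlap for either gene, and in both genes replicate 2 was the higher library of its group.

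The ventx2.2 genes resembled ventx2 in level of loss. For ventx2.2.L (chromosome 7L, 21777297 to 21779193), the control libraries gave 1872 and 2298 normalized counts and the sox8 CRISPR libraries 456 and 662. For ventx2.2.S (chromosome 7S, 16903309 to 16905323), the controls gave 2363 and 5516 and the sox8 CRISPR libraries 863 and 1192. The log2 fold changes were -1.91 for ventx2.2.L (standard error 0.70, limma adjusted p = 0.552) and -1.83 for ventx2.2.S (standard error 0.74, limma adjusted p = 0.648). A gap between groups was therefore present in every ventx2 and ventx2.2 gene. All 4, like 1463 of all genes, had an unadjusted p under 0.05 in limma, but 0 of them passed after adjustment over all genes. The limma standard errors draw on genes of similar level as well as on each gene's own replicates. The depth was not small for these 4 genes, since each had at least 548 reads in every library.

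In normalized counts, sox8 CRISPR replicate 2 lay above replicate 1 in 9 of the 10 ventx genes, whereas in RPM, reads scaled to an equal library total, it did so in 6 and lay below in ventx1.L, ventx2.2.L, ventx2.2.S and ventx3.2.L. On both scales the 2 sox8 CRISPR libraries lay below both controls for all 10. Ranked by log2 fold change from the lowest of all 21531 genes, the 6 called ventx genes stood between rank 13 (ventx3.2.L) and rank 187 (ventx1.2.S), and the ventx2 and ventx2.2 genes between rank 2503 and rank 3351. Count models on the recovered reads made the same split, each calling 6 of 10 ventx genes. In edgeR's quasi-likelihood test, which called 0.237% of all genes lower, the adjusted p of the first set lay between 0.00336 and 0.0395 and that of the second between 0.608 and 0.717. DESeq2, which called 0.859% of all genes lower, gave the ventx2 and ventx2.2 genes adjusted p-values from 0.150 to 0.287. Called higher were 58 of all genes in edgeR and 238 in DESeq2. Without an intensity trend, limma called 0 of all genes and 0 ventx genes. After leaving out control replicate 1, control replicate 2, sox8 CRISPR replicate 1 or sox8 CRISPR replicate 2, limma also called 0 genes of the whole table, so 0 of 10 ventx genes passed in those fits. The 6 genes kept log2 fold changes from -9.83 to -3.49 in them. At an unadjusted p under 0.05, all 10 ventx genes and 1463 of all genes passed with all 4 libraries.

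**Figure D2:**
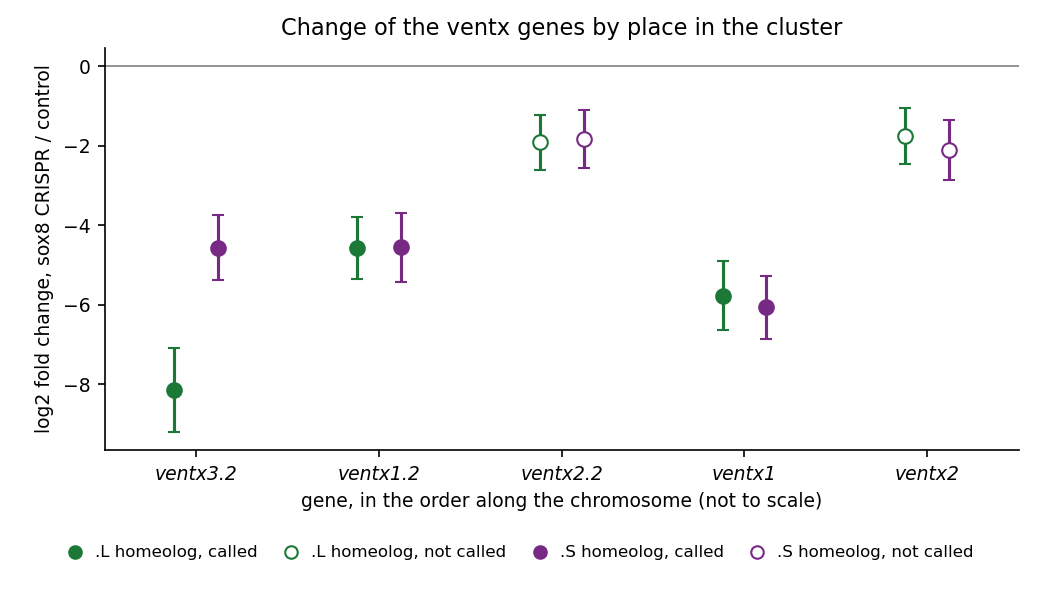
Log2 fold change of sox8 CRISPR against control with its limma standard error (bars), for the 10 ventx genes in their order along chromosomes 7L and 7S, not to scale. Filled points were called lower and open points were not. The open points of ventx2.2 and ventx2, from -1.75 to -2.10, are those nearest 0, and the filled points of the other genes run from -4.56 to -8.14.

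The ventx genes sit in 1 cluster on each subgenome. By the RefSeq annotation of the same assembly, the 5 .L genes span 76367 bases of chromosome 7L (21731065 to 21807431) with 0 other annotated genes among them. The 5 .S genes span 63663 bases of chromosome 7S (16864837 to 16928499) with 1 other gene, LOC108697184. The order on both chromosomes was ventx3.2, ventx1.2, ventx2.2, ventx1 and ventx2. The table's ventx1 and ventx2 were matched to the annotation's ventx1.1 and ventx2.1 only by elimination, since the other 3 symbols were the same in both. On both chromosomes ventx3.2, ventx1.2 and ventx1 were called and ventx2.2 and ventx2 were not, with ventx2.2 lying between ventx1.2 and ventx1. The 5 measured genes on each side of each cluster gave 20 neighbours, of which 0 were called by limma, edgeR or DESeq2, 0 had an unadjusted p under 0.05 in limma and 8 had a log2 fold change below 0. Their median log2 fold change was 0.38, and their lowest limma adjusted p was 0.779 (dusp11.2.S).

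Summed over all 10 genes, the control libraries gave 27677 and 28290 normalized counts and the sox8 CRISPR libraries 2917 and 5164. The sox8 CRISPR libraries kept 10.4% and 18.5% of the control mean. How close the libraries of a group were depended on the scaling. In RPM the sums were 974 and 1712 in the controls, against 194 and 232 with guides, so on that scale the controls stood 1.76 times apart and the sox8 CRISPR libraries were closer. Summed over ventx1, ventx1.2 and ventx3.2, the values were 16881 and 11118 in the controls, against 229 and 498 with guides, a 38.5-fold difference of means. Summed over ventx2 and ventx2.2, they were 10796 and 17172 in the controls, against 2688 and 4666 with guides, a 3.80-fold difference of means. No test was made on these sums.

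The makeup of the ventx reads therefore differed between the groups. The ventx2 and ventx2.2 genes took 39.0% of the 17723 ventx reads of control replicate 1 (95% Wilson interval 38.3% to 39.7%) and 60.7% of the 35590 of control replicate 2 (60.2% to 61.2%). They took 92.2% of the 4670 ventx reads of sox8 CRISPR replicate 1 (91.4% to 92.9%) and 90.4% of the 4273 of replicate 2 (89.4% to 91.2%). The sox8 CRISPR libraries were close to each other, and both lay above both controls, which differed from each other by far more than counting error. The share of ventx3.2 was 31.9% and 12.8% in the controls, and 3.36% and 3.32% with guides. The share of ventx1 was 17.5% and 15.8% in the controls, against 1.71% and 2.11% with guides.

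**Figure D3:**
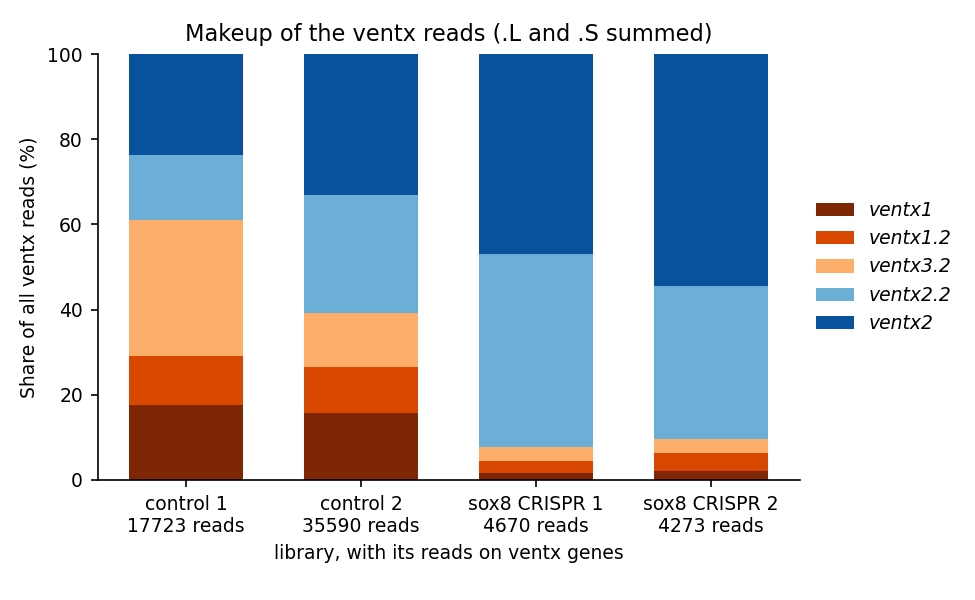
Share of all ventx reads (percent) taken by each ventx gene, .L and .S summed, in each library, with the library's number of ventx reads under its bar. The blue part, ventx2 and ventx2.2, takes 39.0% and 60.7% in the controls, against 92.2% and 90.4% with guides.

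Ratios within a library do not depend on its size factor, apart from the pseudocount, and were used to compare paralog with paralog. The log2 ratio of summed ventx1 to summed ventx2 and ventx2.2 was -1.16 and -1.95 in the controls, against -5.72 and -5.41 with guides. It was 4.01 lower in sox8 CRISPR on the log2 scale, against a pooled standard deviation of 0.42, which corresponds to a 16.2-fold lower ratio. The exact permutation test gave p = 0.333 (two-sided), the smallest value that 2 against 2 libraries allow. With each library left out in turn, the difference lay between -4.41 and -3.62. For ventx1 against ventx2 alone the difference was -3.96 (standard error 0.42, unadjusted p = 6.76e-05), when fitted in limma beside all homeolog pairs of the table. Its adjusted p over 5643 ratios was 0.196, and 0 of these ratios passed, with 401 at an unadjusted p under 0.05. This limma fit of paralog ratios was added after the data were seen.

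Among the 10 ratios between ventx paralogs, 6 set a ventx2-type gene (ventx2 or ventx2.2) against another gene. These 6 differed between the groups by 2.55 to 4.08 on the log2 scale without overlap of libraries. The 10 ratios share genes, so they are not separate results. How many of all 5643 ratios lack overlap was not counted. Among single genes, 19.1% had both sox8 CRISPR libraries below both controls and 17.0% above. Their limma adjusted p-values lay between 0.196 and 0.452. The other 4 ratios differed by 0.12 to 1.41. The log2 ratio of ventx2 to ventx2.2 was 0.63 and 0.26 in the controls, against 0.05 and 0.60 with guides, so the difference of -0.12 between the groups was smaller than the spread between replicates (standard error 0.40, limma adjusted p = 0.945). The log2 ratio of ventx1 to ventx1.2 was 0.60 and 0.55 in the controls, against -0.68 and -0.99 with guides, the only ratio of these 4 without overlap. Its difference of -1.41 (standard error 0.58) had a limma adjusted p of 0.696.

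The homeologs of a ventx gene were compared by the share of the .L copy in the reads of the pair. For ventx2 the .L share was 29.8% and 24.5% in the controls, against 34.4% and 29.8% with guides, so .S gave most reads in every library. For ventx2.2 it was 44.2% and 29.4% in the controls, against 34.6% and 35.7% with guides, with the sox8 CRISPR libraries between the controls. For ventx1 it was 37.4% and 25.1% in the controls, against 47.5% and 24.4% with guides. The groups overlapped for ventx1 and ventx2.2, and in ventx2 the higher control and the lower sox8 CRISPR library were level within counting error.

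For ventx1.2 the .L share was 60.7% and 55.0% in the controls, against 68.2% and 46.7% with guides, so the controls lay between the sox8 CRISPR libraries. The ventx3.2 pair stood apart. Its .L share was 47.5% (95% Wilson interval 46.2% to 48.8%) and 63.5% (62.1% to 64.9%) in the controls, 35.0% in sox8 CRISPR replicate 1 and 1.41% (0.387% to 4.99%) in replicate 2. Both sox8 CRISPR libraries were below both controls, but the size of the gap came from sox8 CRISPR replicate 2. The log2 ratio of .L to .S was 3.58 lower in sox8 CRISPR (standard error 1.53, unadjusted p = 0.0569, limma adjusted p = 0.713). Without sox8 CRISPR replicate 1 the difference was -5.96 (limma adjusted p = 0.0230). It was -1.20 (limma adjusted p = 0.662) when sox8 CRISPR replicate 2 was left out. In both of these fits the sox8 CRISPR group is 1 library, which is assumed to vary as the 2 controls do. For the other 4 ventx pairs the difference lay between -0.08 and 0.35. Over all 5633 pairs limma called 0 (0%), with 396 at an unadjusted p under 0.05. On simulated counts this fit also missed large changes, so the absence of calls shows no equal balance. Whether near-identical reads were split correctly between homeologs was not tested.

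**Figure D4:**
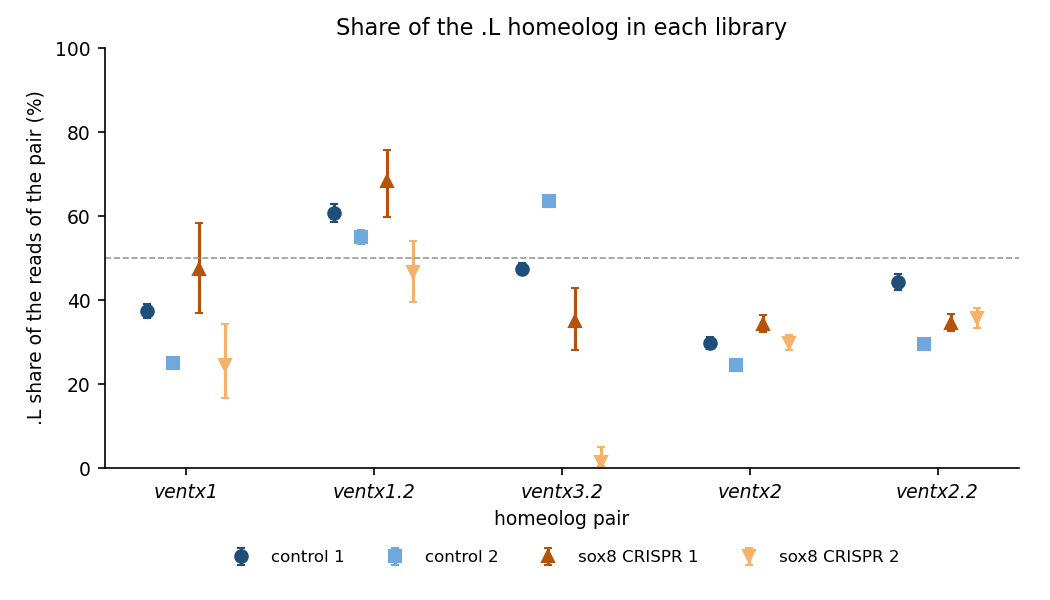
Share of the .L homeolog (percent) in the reads of each ventx pair, per library, with 95% Wilson intervals for counting error. The ventx3.2 points run from 63.5% in control replicate 2 to 1.41% in sox8 CRISPR replicate 2, while in the other pairs no .L share falls below 24.4%.

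By profile over the 4 libraries, the ventx2 and ventx2.2 genes were closest to each other. The smallest distance between any 2 ventx genes was 0.13 (ventx2.2.L and ventx2.L), and the largest was 3.55 (ventx3.2.L and ventx2.L), as root mean square differences of centred log2 values. Among 9985 other genes with a mean of 100 or more, the 5 most like the mean ventx1 profile were bambi.S (0.33), slc35a3.1.L (0.71), bdh1a.L (0.76), dlx5.S (0.77) and sox8.L (0.82). Of these, bambi.S, which encodes a BMP pseudoreceptor, and sox8.L, the targeted gene, were themselves called lower. The 5 most like the mean ventx2 and ventx2.2 profile were lrat.L (0.10), ints15.L (0.13), tgif1.L (0.16), ier5l.L (0.18) and dll1.L (0.20), and 0 of them were called. These distances rest on 4 libraries and are a description.

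Genes listed for the BMP pathway upstream of ventx included genes that were lower and genes that were higher. Whether each listed gene acts upstream of ventx was not tested. Of 12 genes listed as BMP ligands, among them the organizer ligand gene admp, limma called 1 lower and 1 higher, edgeR 0 and 2 and DESeq2 2 and 2. Their median log2 fold change was 0.30, with 8 genes above 0, among them admp.L, admp.S, admp2.L and gdf3.S, and 4 below. In those 4, bmp4.L, bmp4.S, bmp7.1.L and bmp7.1.S, both sox8 CRISPR libraries lay below both controls, an order shown by 19.1% of all genes. The ligand gene bmp4.S gave 3426 and 3333 normalized counts without guides and 231 and 321 with them, keeping 8.18% of its control mean (limma log2 fold change -3.63, adjusted p = 0.0254). In edgeR it did not pass (adjusted p = 0.0527). Its homeolog bmp4.L gave 2196 and 3010 in control libraries against 1212 and 1169, and did not pass (limma adjusted p = 0.817). The second ligand gene called lower by DESeq2 was bmp7.1.L, named after its values were seen, with 403 and 1223 in control libraries against 127 and 55.6 (DESeq2 adjusted p = 0.0228, limma adjusted p = 0.265). Its homeolog bmp7.1.S had fewer counts, 51.5 and 50.9 in control libraries against 2.50 and 0 (limma adjusted p = 0.673). The share kept by bmp4.S thus lay between those of the 2 ventx sets. The gene called higher was admp.L, a BMP-type ligand gene of the organizer, with 3.12 and 15.1 normalized counts in the control libraries against 2574 and 204. The organizer list below counts admp.L again. Of 24 genes for BMP receptors and Smads, limma called 0, edgeR 1 and DESeq2 2, and 4 had an unadjusted p under 0.05 in limma. Their median log2 fold change was -0.39, with 14 of the 24 below 0. The lowest limma adjusted p was 0.0532, for smad7.L, an inhibitory Smad gene with 654 and 795 normalized counts in the control libraries against 49.3 and 23.0. Its homeolog smad7.S had 145 and 234 against 14.4 and 15.7 (limma adjusted p = 0.552).

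Other genes that BMP signalling is known to induce had a median close to that of ventx. Of 32 such genes, limma called 5 lower and 0 higher, edgeR 7 and 0 and DESeq2 18 and 1. The median log2 fold change was -4.53, with 27 genes below 0 and 5 above. In 25 both sox8 CRISPR libraries lay below both controls, against 19.1% of all genes. The lowest were gata2.S (459 and 1794 in control libraries, 0 in both sox8 CRISPR libraries), msx2.L (531 and 1309 against 1.25 and 0) and gata2.L (361 and 1751 against 6.87 and 0). Against a floor of 3 reads per library, gata2.S was at least 311-fold lower than its control mean and msx2.L at least 254-fold. Against the lower control library these bounds were 127-fold and 146-fold. The list was not uniform, since id3.L and id3.S kept 74.3% and 87.1% of their control means. The gene called higher by DESeq2 was hes4.L, with 45.3 and 65.2 in control libraries against 465 and 840 (DESeq2 adjusted p = 0.00219, limma adjusted p = 0.135). Among 22 genes listed as extracellular regulators of BMP, limma called 4 lower and 5 higher, edgeR 3 and 5 and DESeq2 6 and 5. The 5 that limma called higher are counted again among the organizer genes below, so they are not separate results. The called genes with the lowest values were szl.S, szl.L and bambi.S (log2 fold changes -10.26, -8.00 and -5.51). The list includes the pseudoreceptor genes bambi.L and bambi.S, which were both among the 4 called lower. The ventx1, ventx1.2 and ventx3.2 genes had a median of -5.17, and the ventx2 and ventx2.2 genes one of -1.87.

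Most of the organizer genes, of which several are known to be repressed by Ventx proteins, ran the other way. Of the 31 listed, 26 had a log2 fold change above 0 and 5 below. In 19 both sox8 CRISPR libraries lay above both controls and in 1 below both, against 17.0% and 19.1% of all genes. Of 31, limma called 9 higher, edgeR 15 and DESeq2 17, and each called 0 lower, with a median log2 fold change of 4.88. Over all 21531 genes, limma called 31 higher, edgeR 58 and DESeq2 238. The largest rises were in genes for the secreted BMP antagonist chordin. At chrd.2.L both control libraries were at 0 and the sox8 CRISPR libraries at 11979 and 1483 normalized counts. Against the floor of 3 reads, their mean was at least 1437-fold higher and the lower of these libraries at least 317-fold. Likewise chrd.1.L (0 in both controls against 8702 and 917) and chrd.1.S (0 and 0.795 against 16794 and 899) rose, and sox8 CRISPR replicate 1 was the higher library in each. For goosecoid, gsc.L had 3.12 and 0 against 415 and 335 (limma adjusted p = 0.0580), and gsc.S had 18.7 and 0 against 530 and 307 (limma adjusted p = 0.107).

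**Figure D5:**
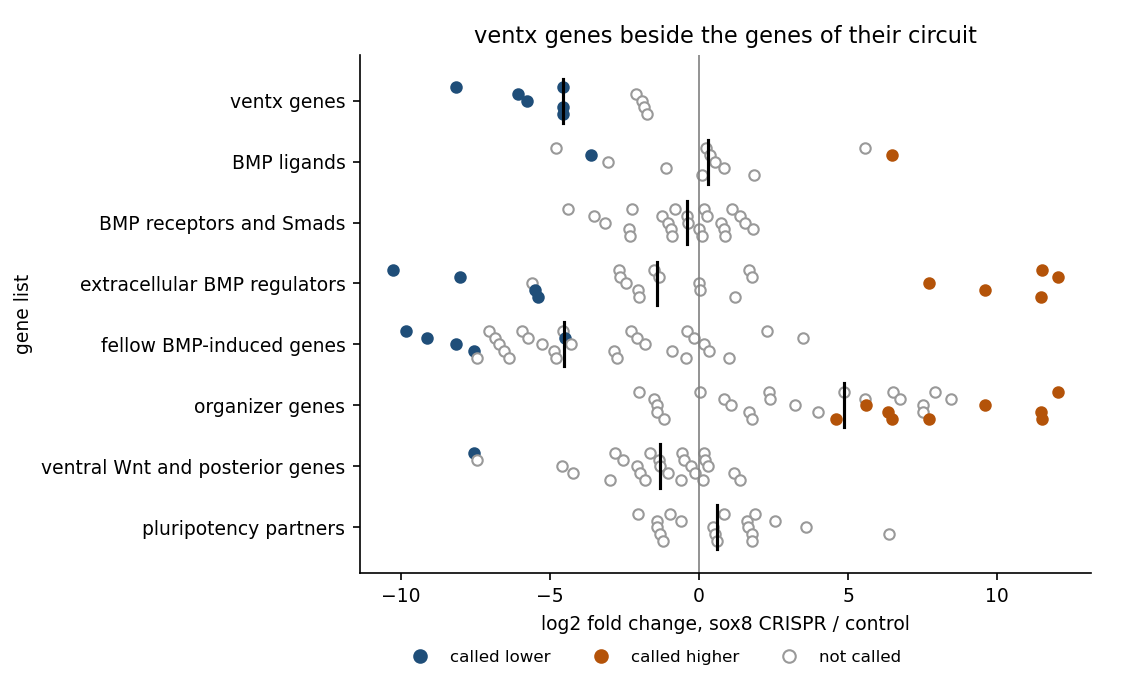
Log2 fold change of sox8 CRISPR against control for the ventx genes and for 7 lists of genes around them, with 1 point per gene and a black line at each median. Blue points were called lower, orange points called higher and open points not called. The ventx median of -4.56 lies beside the -4.53 of the other BMP-induced genes, and the organizer median lies at 4.88. The 2 ventx sets have medians of -5.17 and -1.87.

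Of 25 genes listed as ventral Wnt and posterior, limma called 1 lower, evx1.L (389 and 1837 against 19.4 and 0), while edgeR called 2 lower and DESeq2 5. The list of BMP-induced genes above also holds evx1.L. In this list 19 genes had a log2 fold change below 0 and 6 above. Among the 6 was wnt11b.L, a ligand gene that the paper places in dorsal territories (3309 and 2855 against 6419 and 7616, limma adjusted p = 0.818). The ventral Wnt ligand genes wnt8a.L (1894 and 2325 against 176 and 504) and wnt8a.S (857 and 1365 against 24.4 and 132) did not pass in limma, with adjusted p-values of 0.167 and 0.0585, or in edgeR (0.266 and 0.0799), but both passed in DESeq2 (0.0373 and 0.00253). Of 19 partners of ventx in pluripotency, such as pou5f3 and sox3 genes, limma and edgeR called 0 and DESeq2 1, with 5 at an unadjusted p under 0.05 in limma and a median log2 fold change of 0.59. The smallest unadjusted p belonged to foxd3.S (0 and 17.5 against 458 and 273) and lin28a.S (3731 and 1361 against 780 and 383).

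Among tissue markers, those of ventral mesoderm were lower along with the ventx genes, and those of the organizer summed to more. The genes of both sets are also in the lists above, so their values are not separate evidence. The 12 markers of ventral mesoderm summed to 33949 and 40096 normalized counts in control libraries against 492 and 1841, with 7 called lower and gata2.S at 0 in both sox8 CRISPR libraries. The 15 markers of the organizer summed to 840 and 1370 against 79241 and 11253, with 7 called higher and chrd.1.L and chrd.2.L at 0 in both controls. All 12 ventral markers had a log2 fold change below 0, and of the 15 organizer markers 13 had one above 0 and 2 below. Both groups are labelled as ventral mesoderm, and whether the tissue taken or its expression differed was not tested. The 10 pan-mesodermal markers summed to 47040 and 85613 against 101993 and 112274. Within them, tbxt.L (5489 and 10121 against 5653 and 10617) overlapped between the groups, and tbxt.S had 7919 and 13989 against 17460 and 18549 (limma adjusted p = 0.890). The 11 neural markers summed to 38559 and 13456 in the controls, against 22520 and 67595 with guides, and most of these sums came from gmnn.L and gmnn.S. The other 9 neural markers summed to 1519 and 2586 against 6537 and 3447, without overlap. In 6 of the 11 both sox8 CRISPR libraries lay above both controls, against 17.0% of all genes. The 9 endoderm markers summed to 904 and 443 against 2533 and 1151. Of these 9, however, 6 had a log2 fold change below 0 and 3 above, with a median of -1.98. The 13 epidermal markers summed to 8658 and 6748 against 40847 and 20908, and most of these sums came from the krt8.1 and krt18.1 genes. Of the 13, 10 had a log2 fold change above 0 and 3 below, with a median of 0.85. Both sox8 CRISPR libraries lay above both controls in 4 of the 13 and below both in 1, against 17.0% and 19.1% of all genes. Limma called 0 markers of these 4 tissues, with 3 pan-mesodermal, 2 neural, 4 endoderm and 4 epidermal markers at an unadjusted p under 0.05. In edgeR 1 endoderm marker was called, higher, and DESeq2 called 6. Those 6 were 1 pan-mesodermal, 1 endoderm and 2 epidermal markers called higher, with 1 pan-mesodermal and 1 epidermal marker called lower. The part of tissue makeup in the ventx values was not tested.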

How the data were processed

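RNA-seq libraries of ventral tissue were made with Smart-seq2 by the authors. Per the labels, FastQC 0.12.1, MultiQC 1.14, cutadapt 4.4, HISAT2 2.2.1, SAMtools 1.5 and featureCounts 2.0.6 were used, and the paper names the v10.1 genome assembly. Strand use and the handling of reads matching several genes are not given in the sources used here. The deposited values are a non-negative signal. The authors removed genes with a mean under 5 and scaled the counts of each library by its DESeq2 size factor. Undoing that scaling gave whole reads (within 0.1) for 100% of values. The table held 0 other value columns, and 92.1% of its 21531 symbols matched RefSeq.

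Differential expression was tested with limma 3.58.1 in R 4.3.3 (two-sided, intensity trend) on log2(normalized count + 1), which understates changes of low genes. edgeR 4.0.16 and DESeq2 1.42.0 on the recovered reads were alternatives. Others were pseudocounts of 0.5 and 5, minimum means of 10 and 50, quantile normalization and TMM scaling. Further alternatives were a replicate block, a fit with no intensity trend, summed homeologs and leaving out each library. Scaling to total reads was used only for the summed ventx level and the order of libraries, and no gene test was run on it. Homeolog ratios were fitted for pairs with a summed mean of 10 or more. A fold against a group with 3 reads or fewer per library is a bound computed from 3 reads in its library of highest value per read. The mean of the other group is used unless a single library is named.

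Members and gene lists were chosen with earlier results of these data known, and no list was tested. Named are all ventx genes, sox8.L, bmp4, gsc, wnt8a and tbxt, up to 3 called genes per list and direction, or the 2 with the smallest p where none was called, and the 5 genes most like ventx1 or ventx2. For marker lists sums, counts and medians are given, with gmnn, krt8.1 and krt18.1 named for their part of a sum. Also named are wnt11b.L, for its place in a list, and bambi.L, smad7, bmp7.1.S and dusp11.2.S, which complete a count or pair. Named after their values were seen are bmp7.1.L, admp.S, admp2.L, gdf3.S, id3 and hes4.L. The gene LOC108697184 is named only for its place in the cluster on chromosome 7S. For sox8.S, normalized counts were 14.1 and 43.7 without guides and 134 and 0 with them.

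The fits were checked on simulated counts with known changes. Each gene test recovered part of the changed genes, and the homeolog fit recovered no changed pair. Each gene test also called some unchanged genes in the run with changes, DESeq2 most of all. In a run in which no gene was changed, DESeq2 made calls and limma and edgeR made none.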

Additional observations from a re-analysis of the deposited data

How the results depend on the processing

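The number of ventx genes called was 6 with all 4 libraries and in 9 alternatives, 0 without an intensity trend, and 0 in every fit that left out 1 library (range 0 to 0), where 0 of all genes passed. With homeologs summed it was 3 of 5 sums (ventx1, ventx1.2 and ventx3.2), since that fit holds 1 sum per pair. All 10 ventx genes stayed below 0 in each alternative that kept homeologs apart. With the replicate block the number of ventx genes called was 6, and the block gave 86 calls over all genes against 72. Same-numbered libraries deviated in opposite directions (r = -0.25 across 19103 genes, which are not independent). These values gave no sign of pairing by number, but whether same-numbered libraries shared a batch was not tested. A crossed pairing, chosen after seeing the data, called 10 ventx genes and 776 genes. Over all genes the median log2 fold change was -0.16 in limma, -0.02 under quantile normalization, 0.07 in edgeR and 0.01 in DESeq2. Genes called higher and lower numbered 31 and 41 in limma, 82 and 71 with a pseudocount of 5, 114 and 85 under quantile normalization and 238 and 185 in DESeq2. The summed ventx level differed by -2.79 (log2 ratio of means), with -3.26 to -2.44 when 1 library was left out. With 1 library left out, the homeolog difference ran from -0.65 to 0.61 for ventx1.2 (-0.02 with all 4 libraries), from -0.55 to 0.38 for ventx2.2 (-0.08) and from -0.43 to 1.02 for ventx1 (0.30). It changed sign to 0.15 for ventx1.2 without control replicate 1, and to -0.12 for ventx1 without control replicate 2. The cause was not tested. The lowest values rest on few reads, such as the 2 reads of ventx3.2.L in sox8 CRISPR replicate 2.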
